A study of Mus musculus with 12 samples.

Results

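The genes described here are the enzymes of glycolysis, the glucose and lactate transporters on either side of the pathway, and the kinases that steer its flux. They were chosen by symbol: 35 genes covering glucose uptake, each glycolytic step with its isoforms, the Pfkfb and Pdk regulators, lactate transport and a few side branches. Of the 23284 gene symbols in the files, 34 were members. Tigar has no row under that symbol. Of the 34, 27 had a mean of at least 1 FPKM (a level in which the fragments of a gene are divided by its length and by the size of the library) over the 12 libraries and were tested, among 10152 genes tested in all. Hk2, Hk3, Aldoc, Eno2, Pdk2, Pfkfb1 and Pfkfb4 lay under that level.

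RNA came from 8946, an established mouse T cell lymphoblastic leukemia line, and every library was made from cells that had received a pair of retroviral vectors and had been sorted for the markers GFP and NGFR. One vector was empty MigR1 or carried L1601P, a mutant form of the receptor Notch1, and the other was empty NGFR or carried the coactivator Zmiz1. This gave 4 groups of 3 libraries, named here by their titles: control (both vectors empty), Zmiz1, Notch1, and combined (Notch1 with Zmiz1). All of it is 1 line. Notch1 and Zmiz1 were driven from a retrovirus, so their levels in the groups that received them are not those of the endogenous genes. The members described here were not carried by the vectors. Nothing in the labels says that the 3 libraries of a group came from separate transductions. The p-values therefore measure the spread between these libraries, which may be technical.

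Glycolysis splits glucose into pyruvate in the cytosol. Hexokinase and phosphofructokinase spend ATP in its upper steps, and phosphoglycerate kinase and pyruvate kinase recover it in the lower ones. Lactate dehydrogenase turns pyruvate into lactate, which leaves the cell through monocarboxylate transporters, whereas pyruvate dehydrogenase kinases hold pyruvate back from the mitochondria. Dividing T cells and T cell leukemias are known for a high glycolytic rate even when oxygen is present, and many of these genes are textbook targets of the hypoxia-inducible factors and of Myc.

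Summed FPKM ranged from 549098 to 606908 over the libraries, with 14233 to 14554 genes detected above 0 in each. The files give no read totals, so the depth is unknown. For the groups with a single loaded vector the labels contradict each other: libraries titled Zmiz1 carry L1601P/NGFR and those titled Notch1 carry MigR1/Zmiz1. The vector genes went with the titles, with Notch1 at 22.1 to 42.2 FPKM in the Notch1 libraries against 1.92 to 2.34 in the Zmiz1 libraries, and Zmiz1 at 0.194 to 0.221 and 67.7 to 74.4 in the same groups. The control means were 1.89 FPKM for Notch1 and 0.176 FPKM for Zmiz1. Under the cell line label the names of the groups with a single loaded vector would exchange and no value would change. All 12 T cell markers were present, with a summed level of 6216 to 7516 FPKM. None of 5 B cell, 4 erythroid and 6 fibroblast markers reached a mean of 1 FPKM, and of 6 myeloid markers only Itgam did, at 99.5 ± 2.08 FPKM in control, 96.2 ± 4.43 in Zmiz1, 55.7 ± 4.12 in Notch1 and 59.9 ± 1.36 in combined libraries (SD, n = 3). Zmiz1 replicate 2 stood somewhat apart: its correlations with the 11 others averaged 0.942, and those of the remaining libraries 0.949 to 0.957.

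In control libraries every step of the pathway was expressed, and 1 isoform usually dominated. The most abundant members were Ldhb and Gapdh, at 610.0 ± 27.1 and 449 ± 2.18 FPKM (SD, n = 3), followed by Ldha at 329.6 ± 13.1. Pgk1, Pkm2 and Eno1 came next at 173, 171 and 170.4 FPKM and did not differ beyond their spread. Gpi1 (136 ± 2.63) and Slc16a1 (123 ± 14.6) overlapped in their libraries. Minpp1 followed at 90.8 ± 3.74 and Aldoa at 74.6 ± 1.98 FPKM, with no overlap between these. The entry steps were low, with Hk1 at 12.8 ± 0.554, Slc2a1 at 10.2 ± 0.241 and Slc2a3 at 6.26 ± 0.210 FPKM.

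Among isoforms, Hk1 made up 96.4% ± 0.418 of the summed hexokinase FPKM, and Hk3, the myeloid form, was at 0 in all control libraries. Pfkm, the muscle form of phosphofructokinase, made up 55.3% ± 1.17 of the phosphofructokinase FPKM, Pfkp 22.8% ± 0.895 and Pfkl 21.8% ± 0.978. Ldhb exceeded Ldha in every library. For lactate transport, Slc16a1 (MCT1) stood at 123 ± 14.6 FPKM and Slc16a3 (MCT4, the low-affinity transporter typical of glycolytic cells) at 2.95 ± 0.167, so that Slc16a3 was 2.35% ± 0.256 of their sum. Eno1 and its near copy Gm5506 (Eno1b) share sequence, and Gm5506 stood at 25.9% to 29.1% of Eno1 in every library, so the split between them is uncertain. Gapdh has many processed pseudogenes that may share its reads. Other members were scarce in all 12 libraries: Aldoc, the brain aldolase, ranged from 0.192 to 0.544 FPKM, Pfkfb1 from 0.641 to 1.39, Pfkfb4 from 0.194 to 0.717 and the phosphoglucomutase Pgm1 from 3.15 to 4.63. Hk3 was above 0 in 2 libraries and Pdk2 in 1, at no more than 0.0120 and 0.0146 FPKM.

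The libraries with the Notch1 vector alone showed whether active Notch1 goes with a different level of the pathway. Most of the pathway was higher there, from glucose 6-phosphate isomerase to lactate dehydrogenase and on to the exporter Slc16a3, while glucose uptake, hexokinase and the other lactate transporter did not pass the test. Of 27 tested members 14 rose and 0 fell in limma's moderated test with Benjamini-Hochberg adjustment over all genes (adjusted p under 0.05), where 3.19% of all genes tested were called higher and 2.3% lower. At an unadjusted p under 0.05, 18 members were higher and 1, Eno3, was lower. The share of all genes at that unadjusted threshold was not computed, here or for the later unadjusted counts. These counts therefore cannot be set against the percentages of all genes. The median difference of the 27 was 0.39 on the log2(FPKM + 1) scale, against 0.02 for all genes tested. With median ratio scaling between libraries the calls over all genes moved from 324 higher and 233 lower to 266 and 287, and those of the members from 14 and 0 to 14 and 1. By role, calls came in 5 of 6 upper steps, 5 of 6 lower steps, both lactate dehydrogenases, 1 of 2 lactate transporters and 1 of 4 side branches, and in none of the 2 glucose transporters, the hexokinase, the 2 pyruvate dehydrogenase kinases and the 2 Pfkfb enzymes tested. In bulk RNA, more cells with a high level and more RNA per cell cannot be told apart.

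**Figure D1:**
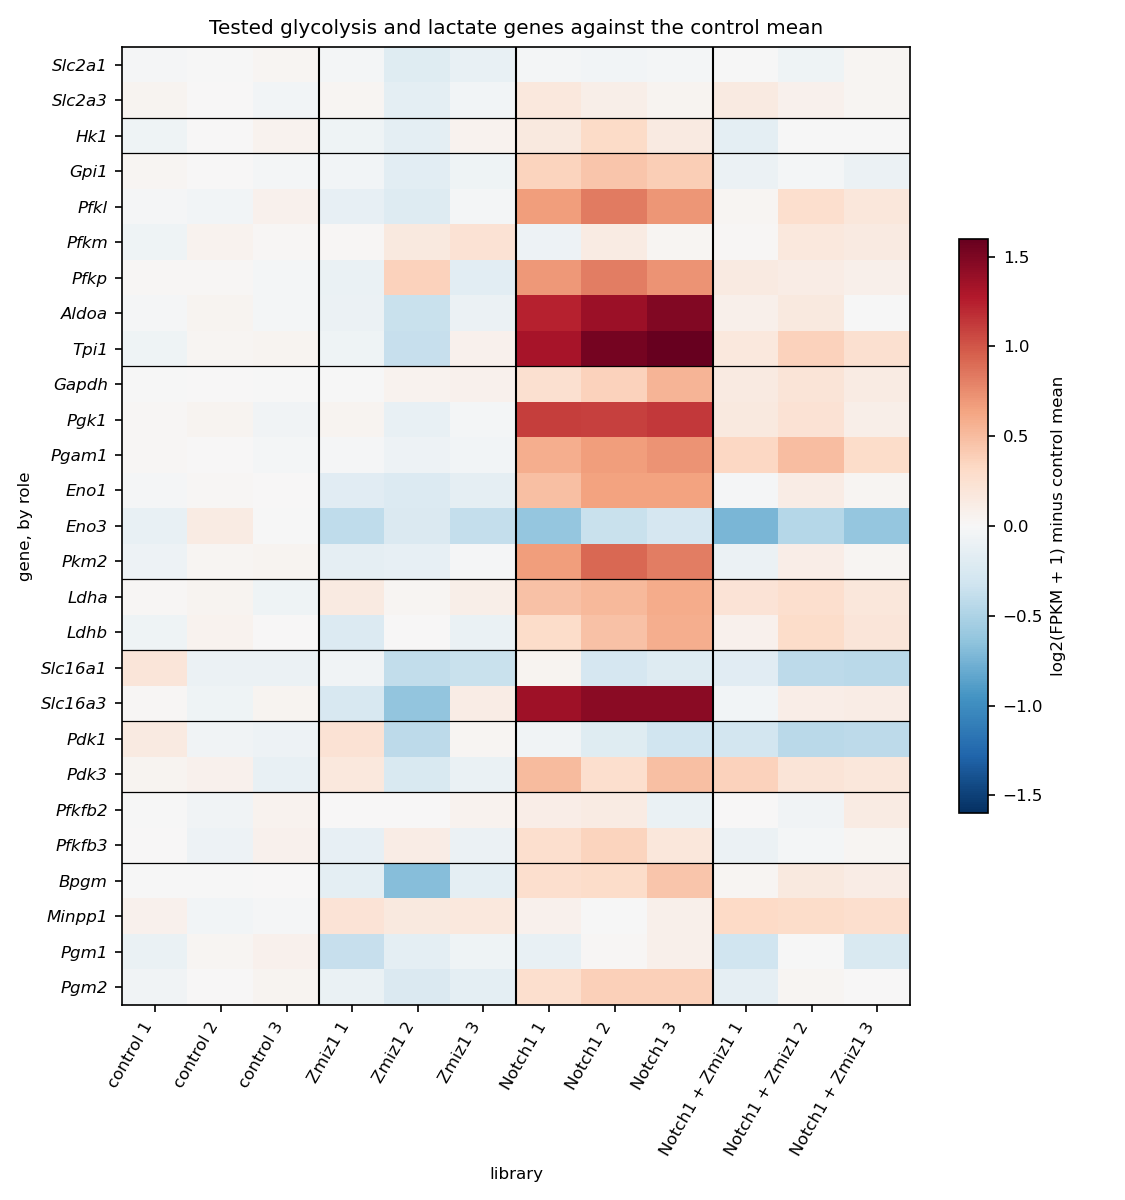
Difference of each library from the control mean, on the log2(FPKM + 1) scale, for the 27 tested members (rows, ordered by role, separated by lines) in the 12 libraries (columns, by group). The Notch1 libraries form a block of higher values from Gpi1 to Ldhb and at Slc16a3, with Pfkm and Eno3 as gaps in it, and the combined libraries are close to the control for most of those rows.

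At the entry, Slc2a1 (GLUT1, the main glucose transporter of dividing T cells) measured 10.0, 10.2 and 10.5 FPKM in the control libraries and 10.0, 9.88 and 9.99 in the Notch1 libraries. Its difference was -0.04 on the log2(FPKM + 1) scale, with a 95% interval of -0.16 to 0.09, so a rise of the size seen further down the pathway lies outside the interval. Slc2a3 (GLUT3) measured 6.46, 6.28 and 6.04 FPKM in control and 7.16, 6.75 and 6.50 in Notch1 libraries, with no overlap but a difference of only 0.10 ± 0.06 (± SE; limma, adjusted p = 0.435). Hk1, the hexokinase that carries nearly all of the signal, measured 12.2, 12.9 and 13.3 FPKM in control and 14.4, 16.0 and 14.2 in Notch1 libraries. The Notch1 libraries were all higher, but the difference of 0.20 ± 0.07 did not pass (adjusted p = 0.154). Hk2, the inducible hexokinase, stayed under 1 FPKM throughout, at 0.520, 0.465 and 0.452 in control and 0.618, 0.641 and 0.679 in Notch1 libraries. In the fit without a filter it rose by 0.15 (adjusted p = 0.0386), a call lost in 14 of 17 alternatives.

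In the upper steps the largest changes were in aldolase and triose phosphate isomerase. Aldoa, the aldolase that splits fructose 1,6-bisphosphate, measured 74.0, 76.9 and 73.1 FPKM in the control libraries and 177, 194 and 209.8 in the Notch1 libraries. The groups were far apart, with a difference of 1.36 ± 0.09 (SE; limma, adjusted p = 6.59e-06). Tpi1, which interconverts the triose phosphates, measured 37.4, 40.4 and 40.5 FPKM in control and 99.4, 116 and 123 in Notch1 libraries. Its difference of 1.49 ± 0.11 (adjusted p = 3e-05) was the largest of any member on this scale. With a pseudocount of 0.1 that of Slc16a3 was larger, 1.66 against 1.51, as was its ratio of mean FPKM, 3.23 against 2.86. Phosphofructokinase is the committed step, and its forms moved apart. Pfkl, the liver form, measured 10.9, 10.7 and 11.7 FPKM in control and 18.2, 20.4 and 18.7 in Notch1 libraries, and Pfkp, the platelet form, 11.8, 11.7 and 11.3 FPKM in control and 19.4, 21.3 and 19.7 in Notch1 libraries. Both rose without overlap, by 0.73 and 0.74 (adjusted p = 0.000308 and 0.00385). Pfkm, the most abundant form, measured 26.8, 29.1 and 28.4 FPKM in control and 26.5, 31.0 and 28.7 in Notch1 libraries, with overlapping groups and no call. Gpi1, the isomerase before it, rose by 0.40 (adjusted p = 0.00120), from 136 to 180.3 FPKM.

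In the lower steps Pgk1, which makes the first ATP of the pathway, measured 175, 177 and 166 FPKM in control and 374, 368 and 379.6 in Notch1 libraries. All Notch1 libraries lay above all controls, with a difference of 1.11 ± 0.06 (limma, adjusted p = 1.68e-06). Pkm2 (the pyruvate kinase gene Pkm, which also encodes the M1 form) measured 161, 175 and 176 FPKM in control and 273, 324 and 301 in Notch1 libraries. It rose by 0.80 ± 0.08 (adjusted p = 0.000189), again without overlap. Pgam1, the phosphoglycerate mutase, rose by 0.66 (adjusted p = 0.000151), from 38.9, 38.8 and 37.7 to 58.3, 61.8 and 63.9 FPKM, and Eno1, the main enolase, by 0.59 (adjusted p = 0.000215). Gapdh, often used as a reference gene, measured 447, 451 and 448 FPKM in control and 537, 579 and 653 in Notch1 libraries. It rose by 0.39 ± 0.07 (adjusted p = 0.00688), a call lost with only the compared groups in the fit (adjusted p = 0.0627). Eno3, the muscle enolase, had the opposite sign, at 11.3, 13.7 and 12.4 FPKM in control and 7.76, 9.46 and 10.2 in Notch1 libraries. Its groups did not overlap, but the difference of -0.41 ± 0.11 missed the threshold (adjusted p = 0.0522) and passed it with median ratio scaling (0.0303), with quantile normalization (0.0413), without Zmiz1 replicate 2 (0.0382) and without Notch1 replicate 3 (0.0473).

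At the end of the pathway, Ldha, which favours lactate, measured 334, 339.8 and 315 FPKM in control and 458, 473 and 499 in Notch1 libraries, and Ldhb, which favours pyruvate, 582, 636 and 612 FPKM in control and 750.1, 844 and 913 in Notch1 libraries. Neither pair of groups overlapped. Ldha rose by 0.53 ± 0.06 and Ldhb by 0.45 ± 0.09 (limma, adjusted p = 0.000312 and 0.0150). The Ldhb call was lost with only the compared groups in the fit (adjusted p = 0.0510) and without control replicate 1 (0.0677), control replicate 3 (0.0573) or Notch1 replicate 2 (0.0528). Lactate export separated by transporter. Slc16a3 measured 3.01, 2.76 and 3.08 FPKM in control and 9.12, 9.75 and 9.73 in Notch1 libraries, a difference of 1.42 ± 0.15 (adjusted p = 0.000308), and the groups were far apart. Slc16a1 measured 140.3, 115 and 115 FPKM in control and 127, 102 and 106 in Notch1 libraries, with overlapping groups and an interval of -0.42 to 0.13 around -0.15. Even after its rise, Slc16a3 was 7.95% ± 1.07 of the summed FPKM of both transporters.

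Among the regulators, the pyruvate dehydrogenase kinases did not move as 1 group. Pdk1 measured 33.2, 28.9 and 28.2 FPKM in control and 29.0, 26.2 and 23.9 in Notch1 libraries, and the difference of -0.19 had an interval of -0.50 to 0.13. Pdk3 measured 7.69, 7.83 and 6.73 FPKM in control and 11.0, 9.11 and 10.7 in Notch1 libraries, with no overlap and a difference of 0.42 ± 0.11 just short of the threshold (limma, adjusted p = 0.0560). It passed without Zmiz1 replicate 1 (0.0271) or Zmiz1 replicate 2 (0.0271). The Pfkfb enzymes, which set the level of the phosphofructokinase activator fructose 2,6-bisphosphate, were all low: Pfkfb2 and Pfkfb3 ranged from 2.26 to 3.56 FPKM over the 12 libraries, and neither was called in any comparison. In the side branches Pgm2, a phosphoglucomutase of glycogen metabolism, rose by 0.34 ± 0.07 (adjusted p = 0.0135), from 6.70, 7.04 and 7.28 to 8.63, 9.39 and 9.40 FPKM. That call was lost without control replicate 1 (0.0657), control replicate 2 (0.0565) or Notch1 replicate 2 (0.0556). Bpgm, which makes 2,3-bisphosphoglycerate, measured 18.2, 18.3 and 18.5 FPKM in control and 22.3, 22.6 and 25.3 in Notch1 libraries, higher without overlap but not called. RefSeq lists Pgm1 and Pgm2 as synonyms of each other, so which locus either symbol names in these files is uncertain.

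**Figure D2:**
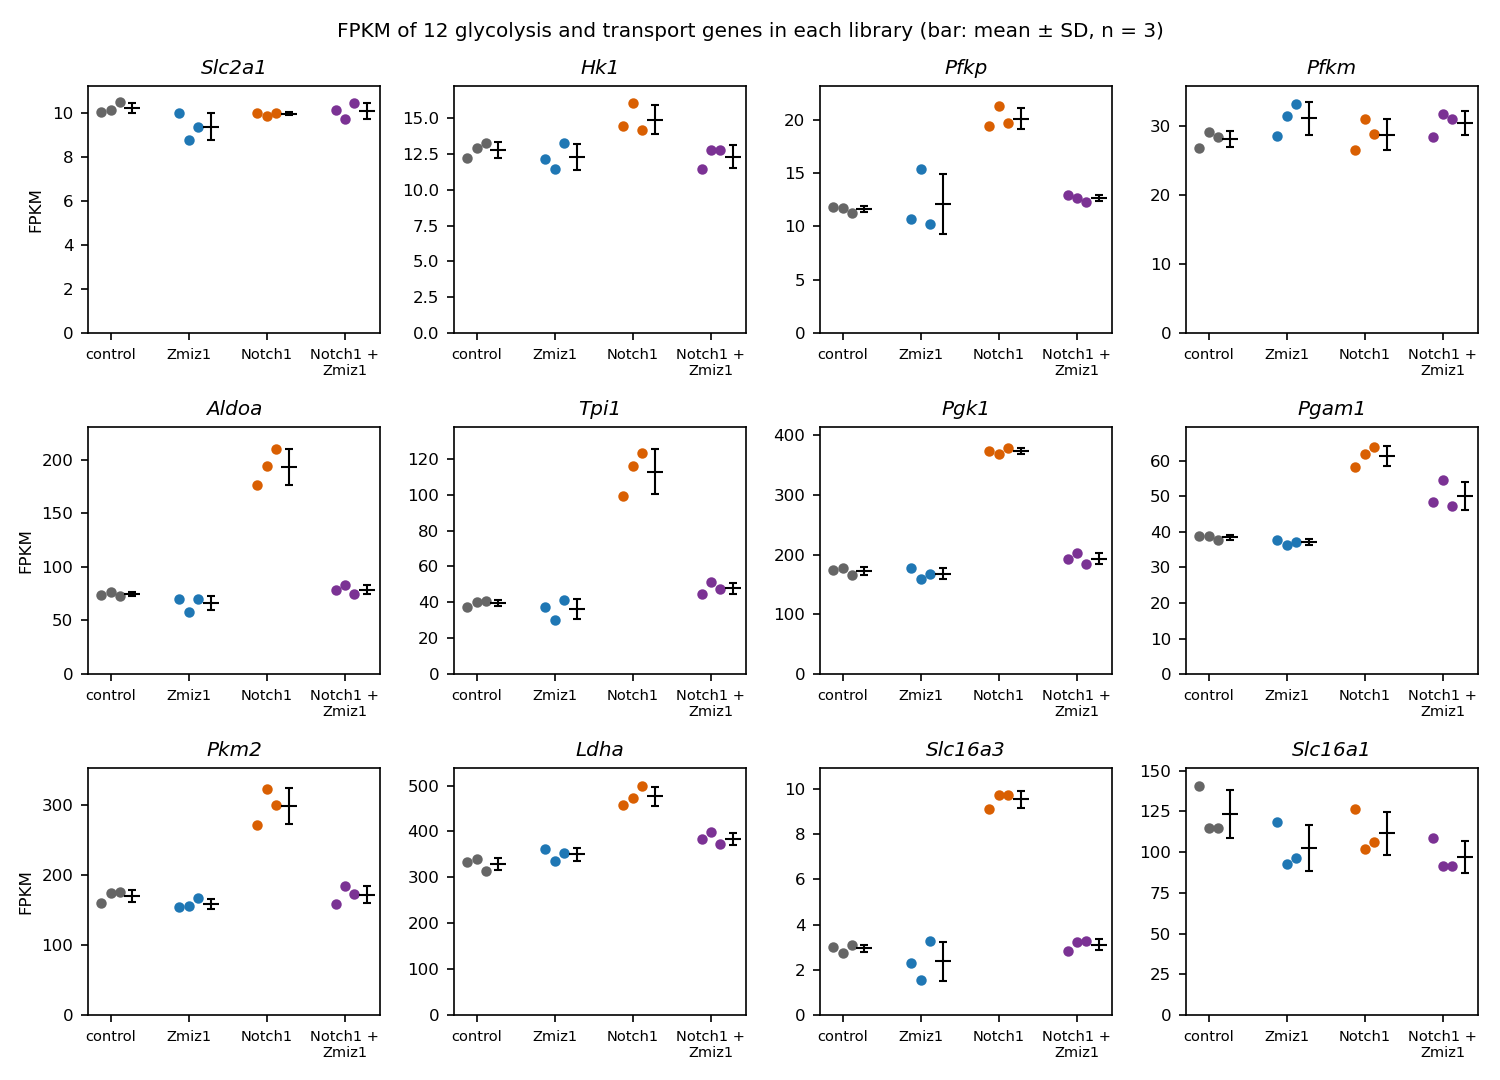
FPKM (vertical axis, from 0) of 12 members in each library, by group (horizontal axis), with the mean and SD of 3 libraries beside the points. For Aldoa, Tpi1, Pgk1 and Slc16a3 the Notch1 libraries lie apart from the other groups, whereas those of Slc2a1 and Pfkm lie close together in all groups and Pgam1 is intermediate in the combined libraries.

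The promoters of 6 members are shown here, chosen after their values were seen. Slc16a3, Pgk1, Aldoa and Tpi1 had the largest log2(FPKM + 1) differences in the Notch1 libraries, and Ldha and Slc16a1 are the lactate-forming dehydrogenase, which rose, and the other lactate transporter, which did not pass the test. Each is the 250 bases before the start of transcription, 5′ to 3′ on the gene's own strand, from RefSeq on GRCm38.p6 (the build called mm10), and capitals mark ACGTG or its reverse complement CACGT, the core of the hypoxia response element. On the same build the annotated genes span chr11:120948484-120959000 for Slc16a3, chrX:106187100-106203699 for Pgk1, chr7:126795234-126800994 for Aldoa, chr6:124810586-124814158 for Tpi1, chr7:46842274-46855627 for Ldha and chr3:104638664-104658462 for Slc16a1. The windows of Slc16a3, Aldoa and Ldha lie inside these spans, before a start site that is not the outermost.
Slc16a3, chr11:120948817-120949066 (plus strand): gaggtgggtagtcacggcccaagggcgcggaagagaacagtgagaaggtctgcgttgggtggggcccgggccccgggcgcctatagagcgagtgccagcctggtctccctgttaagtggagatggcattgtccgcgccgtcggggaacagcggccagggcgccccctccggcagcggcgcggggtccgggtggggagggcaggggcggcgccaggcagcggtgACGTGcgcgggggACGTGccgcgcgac
Pgk1, chrX:106186850-106187099 (plus strand): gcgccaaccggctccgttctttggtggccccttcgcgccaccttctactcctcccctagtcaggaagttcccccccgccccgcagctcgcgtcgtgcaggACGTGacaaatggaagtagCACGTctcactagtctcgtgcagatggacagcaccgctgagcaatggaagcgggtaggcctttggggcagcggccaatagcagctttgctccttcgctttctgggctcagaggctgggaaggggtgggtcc
Aldoa, chr7:126799255-126799504 (minus strand): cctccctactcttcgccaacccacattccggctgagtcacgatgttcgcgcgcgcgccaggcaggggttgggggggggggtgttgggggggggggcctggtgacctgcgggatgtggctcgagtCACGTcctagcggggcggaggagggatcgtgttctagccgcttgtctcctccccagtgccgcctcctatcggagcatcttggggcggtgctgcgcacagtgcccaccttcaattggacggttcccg
Tpi1, chr6:124814159-124814408 (minus strand): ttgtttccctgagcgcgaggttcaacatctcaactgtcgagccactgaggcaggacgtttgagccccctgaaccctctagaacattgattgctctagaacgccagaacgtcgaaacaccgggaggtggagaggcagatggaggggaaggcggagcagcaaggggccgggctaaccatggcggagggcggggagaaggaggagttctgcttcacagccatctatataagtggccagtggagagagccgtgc
Ldha, chr7:46845554-46845803 (plus strand): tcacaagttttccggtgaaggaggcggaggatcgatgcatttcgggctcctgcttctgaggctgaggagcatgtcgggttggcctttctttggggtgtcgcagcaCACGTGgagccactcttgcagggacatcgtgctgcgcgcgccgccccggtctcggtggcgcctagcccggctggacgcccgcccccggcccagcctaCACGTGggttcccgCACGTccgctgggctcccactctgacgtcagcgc
Slc16a1, chr3:104638414-104638663 (plus strand): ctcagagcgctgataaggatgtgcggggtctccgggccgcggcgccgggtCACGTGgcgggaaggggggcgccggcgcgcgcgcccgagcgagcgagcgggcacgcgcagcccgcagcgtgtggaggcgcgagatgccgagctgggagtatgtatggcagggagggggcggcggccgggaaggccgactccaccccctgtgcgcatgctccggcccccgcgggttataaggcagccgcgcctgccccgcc
The matched letters differ in place and number among these genes. Slc16a3 holds them 2 times within 27 bases of the start, Pgk1 2 times at 150 and 131 bases before it, Aldoa 1 time (in 1 of its 3 start sites; the window with most matches is shown, and likewise for Ldha, with 2 start sites), and Tpi1 not at all in this window. Ldha has 5 matches, 4 of which come from 2 copies of CACGTG, the E-box bound by Myc and related factors, since that palindrome holds ACGTG on both strands; the pair in Slc16a1 is 1 such palindrome. Over the 32 members with an entry (51 windows, since a gene can have several starts), ACGTG on either strand was in 37.3% of windows, against 16.6% of all 32851 windows of the same length. CACGTG was in 11.8% against 6.02%, and TGGGAA, the core of the site bound by the Notch partner Rbpj, in 21.6% against 21.6%. The members' windows were also richer in G and C, with a median of 58.8% against 52.4%. Within the members the letters did not follow the calls: ACGTG was in 6 of 13 genes that rose in the Notch1 libraries and in 6 of 11 that were tested and not called. A match describes the sequence and is no evidence of binding.

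Setting the combined libraries against the Notch1 libraries shows what was different when the Zmiz1 vector was present beside the Notch1 vector. Here the pathway was lower: 11 of 27 tested members fell and 1 rose (limma, adjusted p under 0.05), where 0.68% of all genes tested were called lower and 0.827% higher. The median difference of the members was -0.26, and that of all genes rounded to 0. At an unadjusted p under 0.05, 16 were lower and 1 was higher. These comparisons share the Notch1 libraries with those above, so a gene that stood high there is more likely to stand out here, and the repeat of the names is no separate support.

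The enzymes with the largest differences were those at the middle of the pathway. Aldoa measured 78.7, 83.5 and 74.4 FPKM in the combined libraries, Tpi1 44.5, 51.2 and 47.4 and Pgk1 193, 203 and 185, all below every Notch1 library. They fell by 1.28 ± 0.09, 1.22 ± 0.11 and 0.95 ± 0.06 on the log2(FPKM + 1) scale (limma, adjusted p = 1.59e-05, 0.000246 and 7.7e-06). Slc16a3 measured 2.83, 3.24 and 3.28 FPKM and fell by 1.36 ± 0.15 (adjusted p = 0.000856). That is the control level, at 2.76 to 3.08 FPKM, or just above it. Pkm2 measured 159, 184 and 174 FPKM and fell by 0.79 (adjusted p = 0.000403). The phosphofructokinase forms Pfkl, at 11.3, 13.6 and 12.8 FPKM, and Pfkp, at 12.9, 12.7 and 12.3, fell by 0.57 and 0.63 (adjusted p = 0.00318 and 0.0244). Pfkm, the most abundant form, was not called, with a difference of 0.08. The Pfkp call was lost when any 1 Notch1 or combined library was left out (adjusted p of 0.0684 to 0.111). Gpi1 fell by 0.47 (adjusted p = 0.000868) and Eno1 by 0.54 (adjusted p = 0.000837).

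Smaller differences closed the list. Ldha measured 383, 399 and 373 FPKM in the combined libraries, below every Notch1 library and above every control, and fell by 0.31 against Notch1 (adjusted p = 0.0213). The call was lost with only the compared groups in the fit (0.126) and without Notch1 replicate 2 or 3 or any 1 combined library (0.0520 to 0.119). Pgm2 fell by 0.37 (adjusted p = 0.0195), a call lost with only the compared groups in the fit (0.0920) and without Notch1 replicate 2 (0.0913), Notch1 replicate 3 (0.0671), combined replicate 1 (0.0888) or combined replicate 3 (0.0636). Pgam1, Gapdh and Ldhb, although lower by 0.29, 0.23 and 0.26, did not pass (adjusted p = 0.0526, 0.174 and 0.298). Pgam1 passed without a filter on low values (0.0436), with median ratio scaling (0.0489), without Zmiz1 replicate 2 (0.0368) and without combined replicate 2 (0.0257), and Pgam1 and Gapdh both did with quantile normalization (0.0397 and 0.0218). Minpp1, a phosphatase of inositol polyphosphates that also acts on bisphosphoglycerate, was the member that rose, from 94.8, 90.6 and 96.5 to 114, 111 and 109.6 FPKM. Its rise of 0.24 (adjusted p = 0.0392) lost its call in 11 of 19 alternatives, with adjusted p-values of up to 0.160.

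The combined libraries were also set against the control, with which the Notch1 libraries had been compared above. Most members stood near the control here. Of 27 tested members 3 rose and 1 fell (limma, adjusted p under 0.05), where 3.97% of all genes were called higher and 2.49% lower, and the median difference was 0.08 against 0.02 for all genes. At an unadjusted p under 0.05, 7 members were higher and 3 lower. With quantile normalization the calls over all genes moved from 403 higher and 253 lower to 332 and 358, and those of the members from 3 and 1 to 2 and 1. Pgam1 measured 48.6, 54.7 and 47.4 FPKM, above all controls, and rose by 0.37 ± 0.06 (adjusted p = 0.00494). Minpp1 rose by 0.29 (adjusted p = 0.00538), from 94.9, 87.7 and 89.7 FPKM. Ldha rose by 0.22 (adjusted p = 0.0411), a call lost with median ratio scaling (0.0616), with quantile normalization (0.169), and when any 1 of 9 libraries was left out: each control, Zmiz1 replicates 1 and 3, Notch1 replicate 2 and each combined library (0.0507 to 0.175). Eno3 measured 7.12, 8.80 and 7.77 FPKM, below all controls, and fell by 0.60 ± 0.11 (adjusted p = 0.00754). The genes that led the Notch1 libraries had small differences here: 0.27 for Tpi1, 0.16 for Pgk1 and 0.06 for Slc16a3 (adjusted p = 0.228, 0.147 and 0.901), with 95% intervals of 0.02 to 0.52, 0.03 to 0.29 and -0.27 to 0.38. Tpi1 passed with only the compared groups in the fit (adjusted p = 0.0426), where 7 members were called, 5 higher and 2 lower. Calls over all genes were also more numerous in that fit, 1330 against 656 in the main fit.

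Hk2 and Eno2 lay under the level needed for the main test and were read from the fit without a filter. Hk2 measured 0.689, 0.712 and 0.652 FPKM in the combined and 0.301, 0.411 and 0.323 in the Zmiz1 libraries, and all combined libraries lay above all Zmiz1 and control libraries. It rose by 0.19 against control and by 0.33 against Zmiz1 (limma, adjusted p = 0.0131 and 0.000652). The former call was lost with a pseudocount of 0.1 and when control replicate 2 or 3 or combined replicate 1 or 2 was left out (up to 0.0956), and the latter held in all 17 alternatives. Eno2, the neuronal enolase, measured 0.0247, 0.0266 and 0.0252 FPKM in combined and 0.137, 0.120 and 0.0742 in control libraries. It fell by 0.11 against control and by 0.11 against Notch1 (adjusted p = 0.0155 and 0.0364), calls lost in 5 and 8 of 17 alternatives. Such levels are close to 0, where the log2(FPKM + 1) scale understates a change.

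With Zmiz1 and no Notch1 vector, the members differed from control by -0.34 to 0.18 on the log2(FPKM + 1) scale. None of the 27 tested members passed in limma (adjusted p under 0.05), where 1.07% of all genes tested were called higher and 1.03% lower, and the median difference was -0.09 against 0.00 for all genes. At an unadjusted p under 0.05, 1 member was higher, Minpp1, and 4 were lower, Eno1, Eno3, Bpgm and Pgm2. Minpp1 measured 106, 101 and 102 FPKM in the Zmiz1 libraries, all above the control libraries, with a difference of 0.18 ± 0.05 (adjusted p = 0.122). Eno3 measured 9.13, 10.5 and 9.32 FPKM, all below the control libraries, with a difference of -0.34 ± 0.11 (adjusted p = 0.180). Zmiz1 replicate 2 set much of the spread in this group: it was the lowest for Aldoa (58.2 FPKM against 70.0 and 70.1), Tpi1 (30.3 against 37.6 and 41.2), Slc16a3 (1.56 against 2.30 and 3.28) and Bpgm (11.1 against 16.3 and 16.3), and the highest for Pfkp (15.3 against 10.7 and 10.2). Without it the count of called members was again 0.

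The combined libraries differ from the Zmiz1 libraries by the Notch1 vector, now in the presence of Zmiz1. Of 27 tested members 1 rose and 0 fell (limma, adjusted p under 0.05), where 2.67% of all genes were called higher and 1.19% lower. At an unadjusted p under 0.05, for which no share of all genes was computed, 11 members were higher and 2 lower. The median difference was 0.12 against 0.02. With median ratio scaling the calls over all genes moved from 271 higher and 121 lower to 228 and 159. Pgam1 was the member called, from 37.8, 36.2 and 37.2 FPKM in Zmiz1 to 48.6, 54.7 and 47.4 in combined libraries, a rise of 0.42 ± 0.06 (adjusted p = 0.00312) without overlap. Aldoa, Tpi1 and Pgk1 differed by 0.25, 0.39 and 0.20 (adjusted p = 0.156, 0.0944 and 0.0935), and in each of them all combined libraries lay above all Zmiz1 libraries. Slc16a3 differed by 0.32 (adjusted p = 0.336), with overlapping groups. Leaving out Zmiz1 replicate 2 raised the count of called members from 1 to 4, 3 higher and 1 lower, and leaving out Zmiz1 replicate 3, Notch1 replicate 1, Notch1 replicate 3 or combined replicate 1 raised it to 2. Slc16a3 was among them without Zmiz1 replicate 3, with a difference of 0.50 (adjusted p = 0.0364).

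Whether the Notch1 difference itself depended on Zmiz1 was tested as an interaction, the difference of combined and Zmiz1 libraries minus that of Notch1 and control libraries. It passed for 3 of the 27 members, all with a smaller Notch1 difference in the presence of Zmiz1 (limma, adjusted p under 0.05), where 0.0493% of all genes tested were called lower and 0.0197% higher, that is 5 and 2 of 10152. The 3 were Pgk1, at -0.91 ± 0.08 (adjusted p = 0.00190), Aldoa, at -1.10 ± 0.12 (adjusted p = 0.00633), and Tpi1, at -1.10 ± 0.16 (adjusted p = 0.0464), on the log2(FPKM + 1) scale. For Aldoa this sets a rise of 1.36 over control beside one of 0.25 over Zmiz1. The Tpi1 call was the least firm: it was lost in 14 of 18 alternatives, among them a pseudocount of 0.1 (0.0622), a filter at a mean of 5 FPKM (0.0613) and quantile normalization (0.0687), and it held without a filter, with median ratio scaling, without Zmiz1 replicate 2 and without Notch1 replicate 1. Those of Pgk1 and Aldoa held in all 18. The vector gene Zmiz1 was itself among the genes called lower in the interaction, at -0.56 (limma, adjusted p = 0.0266). Its level was therefore not additive over the groups on this scale. Notch1 was not called, at 0.09 with an interval of -0.45 to 0.63. The fit did not adjust for the level of either vector gene, and the part of that level in the members' differences was not tested.

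Another 9 members had an unadjusted p under 0.05 in the interaction, and all of them were negative. They were Slc16a3 (-1.10), Pkm2 (-0.69), Pfkp (-0.66), Pfkl (-0.45), Ldha (-0.40), Gpi1 (-0.38), Eno1 (-0.36), Gapdh (-0.27) and Pgam1 (-0.23). None passed the adjustment, and the adjusted p was 0.0917 for Pkm2, 0.305 for Slc16a3 and 0.999 for Pgam1. Pkm2 passed with median ratio scaling (0.0472) and without Notch1 replicate 1 (0.0410). Slc16a3, at a 95% interval of -1.56 to -0.64, passed when Zmiz1 replicate 2 was left out (-1.29, adjusted p = 0.00969). For these 9 the data do not show whether the Notch1 difference depended on Zmiz1.

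**Figure D3:**
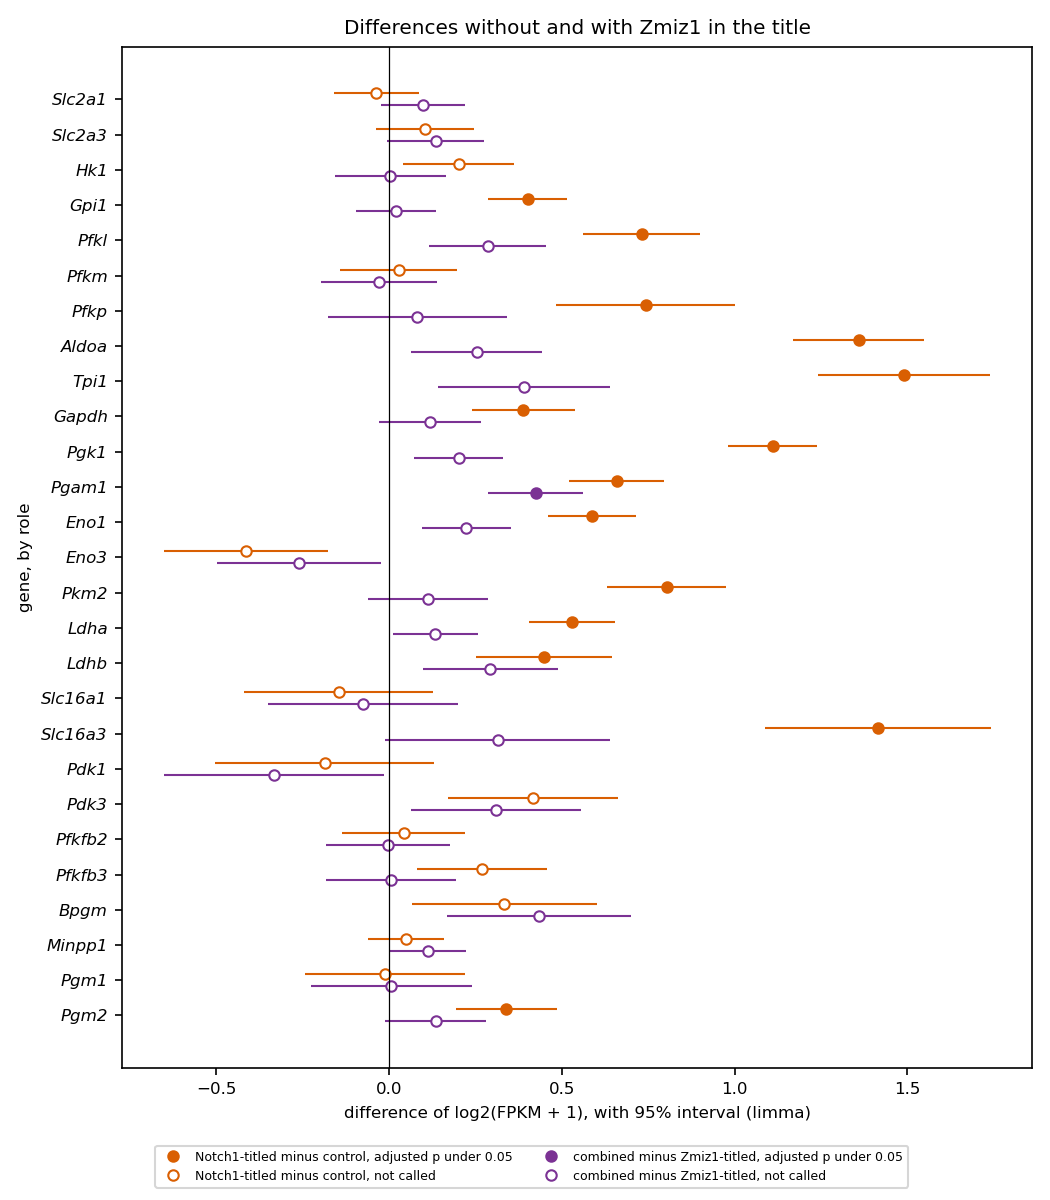
Difference of log2(FPKM + 1) (horizontal axis) with its 95% interval for the 27 tested members (vertical axis, by role), for Notch1 minus control and for combined minus Zmiz1 libraries. Filled points passed an adjusted p of 0.05 in limma: 14 in the first set and Pgam1 alone in the second, and the intervals of the pair lie apart for Aldoa, Tpi1 and Pgk1 among others.

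Within single steps the makeup of isoforms was different in the Notch1 libraries. These shares of summed FPKM do not depend on scaling between libraries, and they are given as values without a test. Pfkm made up 54.1% to 56.5% of phosphofructokinase FPKM in control and 41.4% to 42.8% in Notch1 libraries, and was 55.8% to 61.3% in Zmiz1 and 54.0% to 55.3% in combined libraries. The Notch1 libraries did not overlap any other group. Pfkl stood higher, at 27.8% to 28.4% in Notch1 against 20.8% to 22.7% in control libraries, and Pfkp, at 29.3% to 30.3% against 22.0% to 23.8%. Slc16a3 made up 2.35% ± 0.256 of the lactate transporter FPKM in control, 2.28% ± 0.892 in Zmiz1, 7.95% ± 1.07 in Notch1 and 3.15% ± 0.522 in combined libraries (SD, n = 3). Again only the Notch1 libraries stood apart.

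Other shares differed between the groups with and without the Notch1 vector, whether or not Zmiz1 was present. Pdk3 made up 18.8% to 21.3% of the pyruvate dehydrogenase kinase FPKM in control and 18.2% to 21.5% in Zmiz1 libraries, but 25.8% to 31.0% in Notch1 and 27.8% to 28.7% in combined libraries. In the combined libraries against control, Pdk1 differed by -0.38 and Pdk3 by 0.25 on the log2(FPKM + 1) scale, so both enter this share. Both had an unadjusted p under 0.05 in limma, and neither was called. Eno3 made up 6.32% to 7.37% of enolase FPKM in control, 5.69% to 6.66% in Zmiz1, 3.15% to 3.69% in Notch1 and 4.05% to 4.52% in combined libraries. The share was lower in both groups with the Notch1 vector than in either group without it, and the enolase total carries the uncertainty of Eno1 and its near copy. The Ldha share of lactate dehydrogenase overlapped among all groups, at means of 35.1%, 38.2%, 36.4% and 35.6% in control, Zmiz1, Notch1 and combined libraries, so both forms were higher together in the Notch1 libraries. Slc2a1 kept 59.4% to 62.0% of the FPKM of the 2 glucose transporters in the group means.

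**Figure D4:**
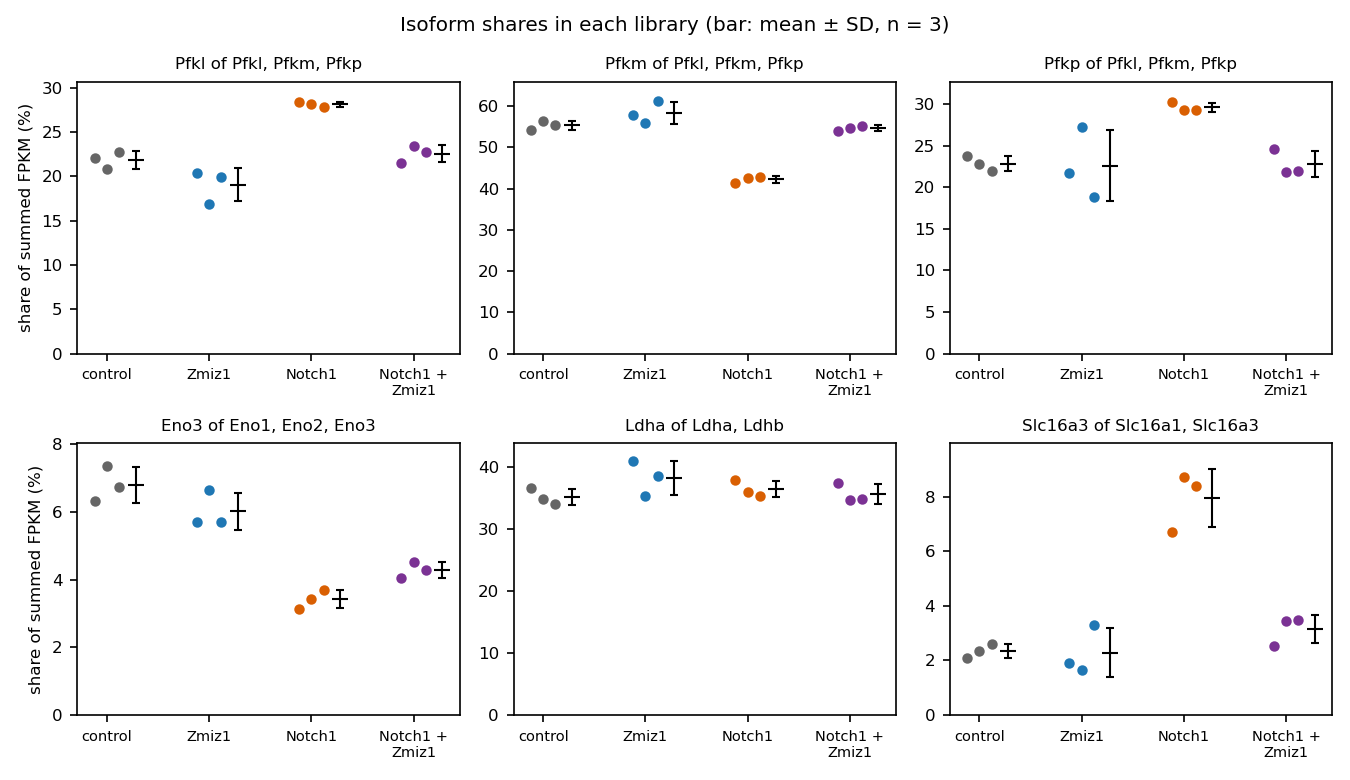
Share of the summed FPKM of a step (percent, vertical axis from 0) held by 1 isoform in each library, by group, with the mean and SD of 3 libraries. The Notch1 libraries stand apart for Pfkl, Pfkm, Pfkp and Slc16a3, although Zmiz1 replicate 2 comes near them for Pfkp, while the Ldha share overlaps among the groups.

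As a whole, the 34 members summed to 2548 to 2618 FPKM in control, 2468 to 2521 in Zmiz1, 3557 to 3989.9 in Notch1 and 2719.5 to 2934 in combined libraries. As a share of all FPKM of a library they made up 0.463% ± 0.00130, 0.436% ± 0.00489, 0.663% ± 0.0193 and 0.487% ± 0.0144 (mean and SD, n = 3). The Notch1 libraries lay above all others, and the combined libraries lay above the control and Zmiz1 libraries, though by far less. The row of Myc, whose product is a known activator of many of these genes, measured 0.0828, 0.106 and 0.0274 FPKM in control, 0.285, 0.610 and 0.499 in Zmiz1, 0.721, 0.811 and 0.887 in Notch1 and 5.91, 6.76 and 6.87 in combined libraries. The level of Myc in this row was the highest in the combined libraries. The part of Myc in these results was not tested, and the same holds for the myeloid marker Itgam, whose level was lower in both groups with the Notch1 vector.

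Some genes of the neighbouring pathways differed as well. Of 50 tested genes in 5 lists, 7 rose and 1 fell in the Notch1 libraries against control (limma, adjusted p under 0.05). That is 14% and 2%, against the 3.19% and 2.3% of all genes given above. The pentose phosphate pathway, which branches off at glucose 6-phosphate, had 3 of 10 tested genes higher: Prps2, which makes the ribose donor of nucleotides, by 0.73, the lactonase Pgls by 0.42, and the transketolase Tkt by 0.25 (adjusted p = 0.00406, 0.00929 and 0.0108). In the glycogen and hexosamine branches 2 of 14 rose, the phosphomannomutase Pmm1 by 0.51 and Uap1, which makes UDP-GlcNAc, by 0.47 (adjusted p = 0.0382 and 0.00144). The Pmm1 call was lost in 9 of 19 alternatives. Of 12 genes that bring pyruvate into the mitochondria, Pdhx rose by 0.22 and Pdha1, the catalytic subunit of pyruvate dehydrogenase, fell by 0.25 (adjusted p = 0.0206 and 0.0443). These calls were lost in 6 and 9 of 19 alternatives. Of 6 other glycolysis isoforms and partners the phosphatase Pgp rose by 0.29 (adjusted p = 0.0176), a call lost in 5 of 19 alternatives. None of 8 genes of the redox shuttles was called, with 2 at an unadjusted p under 0.05.

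In the combined libraries against control, 4 of the 50 neighbours rose and 0 fell, where 3.97% of all genes were called higher and 2.49% lower: Uap1 by 0.62, Prps2 by 0.58, Pgp by 0.32 and Tkt by 0.23. At an unadjusted p under 0.05, 10 were higher and 3 lower. In the Zmiz1 libraries against control none was called in limma, with 4 higher and 3 lower at an unadjusted p under 0.05. In the combined against the Notch1 libraries none of the 50 was called, with 3 higher and 5 lower at an unadjusted p under 0.05. Against the Zmiz1 libraries 5 rose and 0 fell (13 and 2 unadjusted): Prps2 by 0.59, Uap1 by 0.45, Pgls by 0.35, Tkt by 0.26 and the dehydrogenase Pgd by 0.24. Prps2 measured 58.8, 49.6 and 46.8 FPKM in control, 58.1, 49.3 and 46.0 in Zmiz1, 96.1, 80.5 and 82.1 in Notch1 and 86.0, 72.1 and 74.6 in combined libraries, so it was higher in both groups with the Notch1 vector. In the interaction none of the 50 was called, with 2 higher and 1 lower at an unadjusted p under 0.05. Of the 17 calls of these neighbours over all comparisons, 12 were lost under some alternative, and for none did the direction change.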

How the data were processed

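RNA was sequenced in 12 libraries of the line 8946, made with an mRNA kit that keeps no strand. The values deposited by the authors are FPKM per gene symbol, per the file headers. The submitters' processing notes list the build mm10, the aligners Bowtie2 2.1.0.0 and TopHat2 2.0.9, FastQC 0.10.0, and Cuffdiff 2.1.1 with Cufflinks, in no stated order; the annotation is not given in the sources used here. Unstranded counting and unstated treatment of multiply mapped reads could affect overlapping genes and those with near copies.

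The deposited FPKM, unscaled, were turned into log2(FPKM + 1), and 10152 genes whose mean reached 1 FPKM were tested. A limma fit (3.58.1, R 4.3.3; variances moderated along an intensity trend) of 4 group means gave 5 pairwise comparisons and the interaction. Tests were two-sided, p-values were adjusted by Benjamini-Hochberg across these genes, and the threshold was 0.05. An exact test of 3 against 3 libraries cannot go below p = 0.1. Members under 1 FPKM came from a fit without a filter. The fits were tested on simulated data. No libraries were identical (highest correlation 0.964). "Rose" and "fell" refer to the threshold. Named genes were all members called, up to 14 per comparison, with FPKM per library for those called most often in each role; per neighbouring list up to 3 called genes; and Notch1, Zmiz1 and Myc. Pgd, FPKM of further members and the motifs were chosen after values were seen. Members and lists were chosen with earlier results of these data known. Symbols were matched to RefSeq (GRCm38.p6) for 32 promoters. Figures used Python 3.11.15 and matplotlib 3.10.9.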

Additional observations from a re-analysis of the deposited data

Results flagged for a closer look

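The difference between libraries with and without the Notch1 vector was itself different in the presence of Zmiz1 for 3 members, by the interaction test in limma. The change on the log2(FPKM + 1) scale was -1.10 for Aldoa (adjusted p = 0.00633), -1.10 for Tpi1 (adjusted p = 0.0464) and -0.91 for Pgk1 (adjusted p = 0.00190). In each of the 3 genes the 3 Notch1 libraries lay above all 9 others. The genes are listed because the interaction passed, which rests on these same libraries, so this is no separate support. Over their alternatives the adjusted p ranged from 0.00221 to 0.0370 for Aldoa, from 0.00868 to 0.199 for Tpi1 and from 0.00139 to 0.0110 for Pgk1.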

How the results depend on the processing

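Each of these was tried: a replicate block, a pseudocount of 0.1, quantile normalization or median ratio scaling, a filter at 5 FPKM or none, the compared groups alone in the fit, and leaving out each library. Of the members called, 11 of 14 kept their call under all of them in Notch1 against control, 3 of 4 in combined against control, 1 of 1 in combined against Zmiz1, 8 of 12 in combined against Notch1 and 2 of 3 in the interaction, and no value given for a gene changed direction (85 results). Of 1588 values of these results under the alternatives, 1404 kept their side of the threshold, 159 lost a call and 25 gained one. With 1 library left out the count of called members ranged from 12 to 18 in Notch1 against control, 3 to 5 in combined against control, 1 to 4 in combined against Zmiz1, 8 to 13 in combined against Notch1 and 2 to 4 in the interaction, and was 0 in Zmiz1 against control. With only the compared groups in the fit, combined against control gave 7, with 1330 calls over all genes against 656 in the main fit, and the cause was not tested. Without a filter combined against Zmiz1 gave 2, since Hk2, which the filter leaves out, was called beside Pgam1. The count over all genes moved more, over 270 to 1059 in Notch1 against control, 62 to 365 in Zmiz1 against control, 331 to 1330, 162 to 721 and 74 to 302 in combined against control, Zmiz1 and Notch1, and 3 to 18 in the interaction.

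No label says that a replicate number marks a shared transduction or day. Deviations from the group means correlated between same-numbered libraries at -0.18 to 0.27, with a median of 0.04, over 0.1 in 6 of 18 pairs. Between differently numbered libraries they correlated at -0.23 to 0.20, with a median of -0.02, over 0.1 in 4 of 36 pairs. Whether libraries of the same number share a source was not tested. With the replicate block the counts of called members were 17 in Notch1 against control, 3 (1 higher, 2 lower) in Zmiz1 against control, 5 in combined against control, 5 (4 higher, 1 lower) in combined against Zmiz1, 15 in combined against Notch1 and 3 in the interaction. Calls over all genes also became more numerous in the pairwise comparisons. In the same order they were 1059, 365, 1158, 721, 260 and 7 with the block, and 557, 214, 656, 392, 153 and 7 without it. Of the values given as not called, those that passed with the block were Slc16a1 (lower, adjusted p = 0.0345), Eno3 (0.00604) and Pdk3 (0.0196) in Notch1 against control, Eno3 (0.0299) and Minpp1 (0.0367) in Zmiz1 against control, Pgam1 (0.0450) and Ldhb (0.0483) in combined against Notch1 and Pkm2 (0.0222) in the interaction, where Tpi1 lost its call (0.0760). FPKM without read totals give no counting error, so genes near 0 FPKM, such as Hk2 and Eno2, have a precision known only from the 3 libraries.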

Other observations

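Tigar, a phosphatase that lowers fructose 2,6-bisphosphate, is listed in RefSeq with the older symbol 9630033F20Rik, and the files hold a row under that symbol. It measured 0.565 ± 0.0866 FPKM in control, 0.367 ± 0.0810 in Zmiz1, 0.713 ± 0.0635 in Notch1 and 0.555 ± 0.0946 in combined libraries (SD, n = 3). It is outside the list of members, which gives the newer symbol, and was looked up after its absence had been seen. Gm5506, the near copy of Eno1, stood at 46.3, 39.8, 71.8 and 46.7 FPKM in the same groups, with the highest mean in the Notch1 libraries as for Eno1 itself.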
